A study of Mus musculus with 12 samples.

Results

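The 9 genes described here, *Neurog1*, *Neurog2*, *Neurod1*, *Neurod2*, *Neurod6*, *Tbr1*, *Eomes*, *Insm1* and *Nhlh1*, encode transcription factors that drive the step from neural progenitor to cortical neuron. They were taken by gene symbol from tables of 24525 genes, and all 9 were listed there. The samples were neurospheres, floating cultures of neural stem/progenitor cells (NSPCs) grown with EGF and bFGF from the brains of E14.5 embryos of strain C57BL/6 at passage P1. There were 3 wild-type and 3 *Ythdf2-/-* input libraries, and the 6 m6A-IP samples were not analysed here. In the *Ythdf2-/-* mice, a ubiquitous Cre had removed the LoxP-flanked 5′ UTR and exon 1 of *Ythdf2*, the gene of an m6A reader that promotes mRNA decay. The labels name no treatment. The question was whether these neurogenic factors differed in level between the genotypes, and which of them were too low to compare.

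In the embryonic cortex, radial glia divide at the ventricle and give rise to neurons, partly through basal progenitors. Neurogenins are proneural bHLH proteins that start the neuronal programme in dorsal progenitors. They bind E-boxes as dimers with E proteins, are held back by Id and Hes proteins, and switch on later factors, among them Eomes (Tbr2) in basal progenitors and NeuroD proteins and Tbr1 in young glutamatergic neurons. NSPCs kept in growth factors are held largely in the progenitor state.

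The libraries held 11029827 to 13185778 counted reads. Values per library are given below for replicates 1, 2 and 3 of each genotype in that order. *Ythdf2* had 840, 961 and 999 wild-type reads and 137, 198 and 138 *Ythdf2-/-* reads, so each library matched its label. Wild-type replicate 3 stood apart, at 91.0 on the first principal component (74.2% of the variance) against -30.6 to -6.04 for the other 5. Reads on 4 Y-linked genes summed to 1111 and 1638 in wild-type replicates 1 and 2 and 2147 in *Ythdf2-/-* replicate 3, and to 0 or 1 in the other 3 libraries. The progenitor markers were abundant. *Slc1a3* had 1406 to 3739 CPM (reads per 1000000 counted reads, scaled with TMM factors) and *Vim* 1433 to 3032 CPM. The 8 progenitor markers summed to 5215 CPM in wild-type replicate 3, where *Nes* had 264 CPM, and to 7945 to 9188 CPM in the other 5 libraries, where *Nes*, an intermediate filament gene of progenitors named after its values were seen, had 724 to 1211 CPM. Of the 7 microglial markers, *C1qa*, *C1qb* and *Ptprc* were at 0 in all 6 libraries, and the list summed to at most 1.26 CPM in any library.

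The factors lie on separate loci in GRCm38, the assembly also called mm10. *Neurog2* spans 127632733 to 127635636 on the plus strand of chromosome 3, with 2 exons and the coding sequence in 1 of them. *Neurog1* (chromosome 13, 56250478 to 56252180, minus strand) has 1 exon. *Neurod1* (chromosome 2, 79452637 to 79456636), *Neurod2* (chromosome 11, 98325415 to 98329645) and *Neurod6* (chromosome 6, 55677818 to 55681263) lie on minus strands and each have 2 exons, as does *Nhlh1* (chromosome 1, 172052292 to 172057596, minus strand). *Insm1* (chromosome 2, 146221997 to 146225020, plus strand) has 1 exon. The T-box genes *Tbr1* (chromosome 2, 61802863 to 61814114, plus strand) and *Eomes* (chromosome 9, 118478186 to 118486132, plus strand) have 6 coding exons each. In the longest curated RefSeq transcript of each, no exon base was shared with another gene.

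Ythdf2 recognizes m6A, which is placed within a short consensus, so the core GGACT was searched in the sense strand of each longest RefSeq transcript. It occurred at least once in 8 of the 9 factors, and in 86.7% of 21000 genes with a transcript. *Neurog2* had 5 matches, or 2.25 per kb, against a median of 1.04 per kb over all genes, and 91.6% of genes were at or below its density. *Neurod1* had 3 matches, all coding. *Insm1* had 0. The match nearest the stop codon is shown for *Neurog2* (chr3:127634498-127634522, plus strand) and *Neurod1* (chr2:79454351-79454375, minus strand), the factors with enough reads to test that hold one, with GGACT in capitals. Counted from the last coding base, they lie at -10 in *Neurog2* and -399 in *Neurod1*. A match is not a methylated site, and m6A itself was not analysed here.

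*Neurog2*: ccctcgccagGGACTgtatctagag

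*Neurod1*: ccagtcccctGGACTgcccagcccg

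Of the 8 factors with a promoter entry in the RefSeq-based table (300 bases around the start site), *Neurod2* and *Nhlh1* held the E-box CAGATG, searched on both strands as CAGATG or CATCTG. Of all 32851 promoters, 17.2% held it. The sites of both genes are shown, with the E-box in capitals. They lie at chr11:98329748-98329773 (minus strand) for *Neurod2*, with the E-box at -118 from the start site, and at chr1:172057784-172057809 (minus strand) for *Nhlh1*, where it is at -203. Their use was not measured.

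*Neurod2*: tagagagtgaCAGATGgcggcgggtc

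*Nhlh1*: gcatggagaaCAGATGtccctgctcc

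All 9 factors were low. Together they summed to 4.96 to 11.1 CPM in wild type and 3.70 to 10.1 CPM in *Ythdf2-/-*. On a scale per length (RPKM, CPM divided by the transcript length in kilobases, mean ± SD over the 6 libraries), *Insm1* led at 1.24 ± 0.522, followed by *Neurog2* at 0.789 ± 0.730, *Neurod1* at 0.264 ± 0.113 and *Eomes* at 0.167 ± 0.0722. *Neurod6*, *Nhlh1*, *Neurod2* and *Tbr1* followed, with mean levels of 0.0931 to 0.0420 RPKM, and *Neurog1* was at 0. The order of the first pair was the reverse in *Ythdf2-/-*, where *Neurog2* had 1.19 ± 0.915 and *Insm1* 1.08 ± 0.603 RPKM, against 0.393 ± 0.153 and 1.40 ± 0.488 RPKM in wild type (SD, n = 3 each). Over all 6 libraries, each factor differed from its neighbour in this order by less than the larger SD of the pair, except *Tbr1*, whose level of 0.0420 ± 0.0291 RPKM lay above *Neurog1*. For comparison on the same scale, *Hes6*, a bHLH factor that promotes neurogenesis, had 68.0 ± 10.8 RPKM (SD, n = 6).

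**Figure D1:**
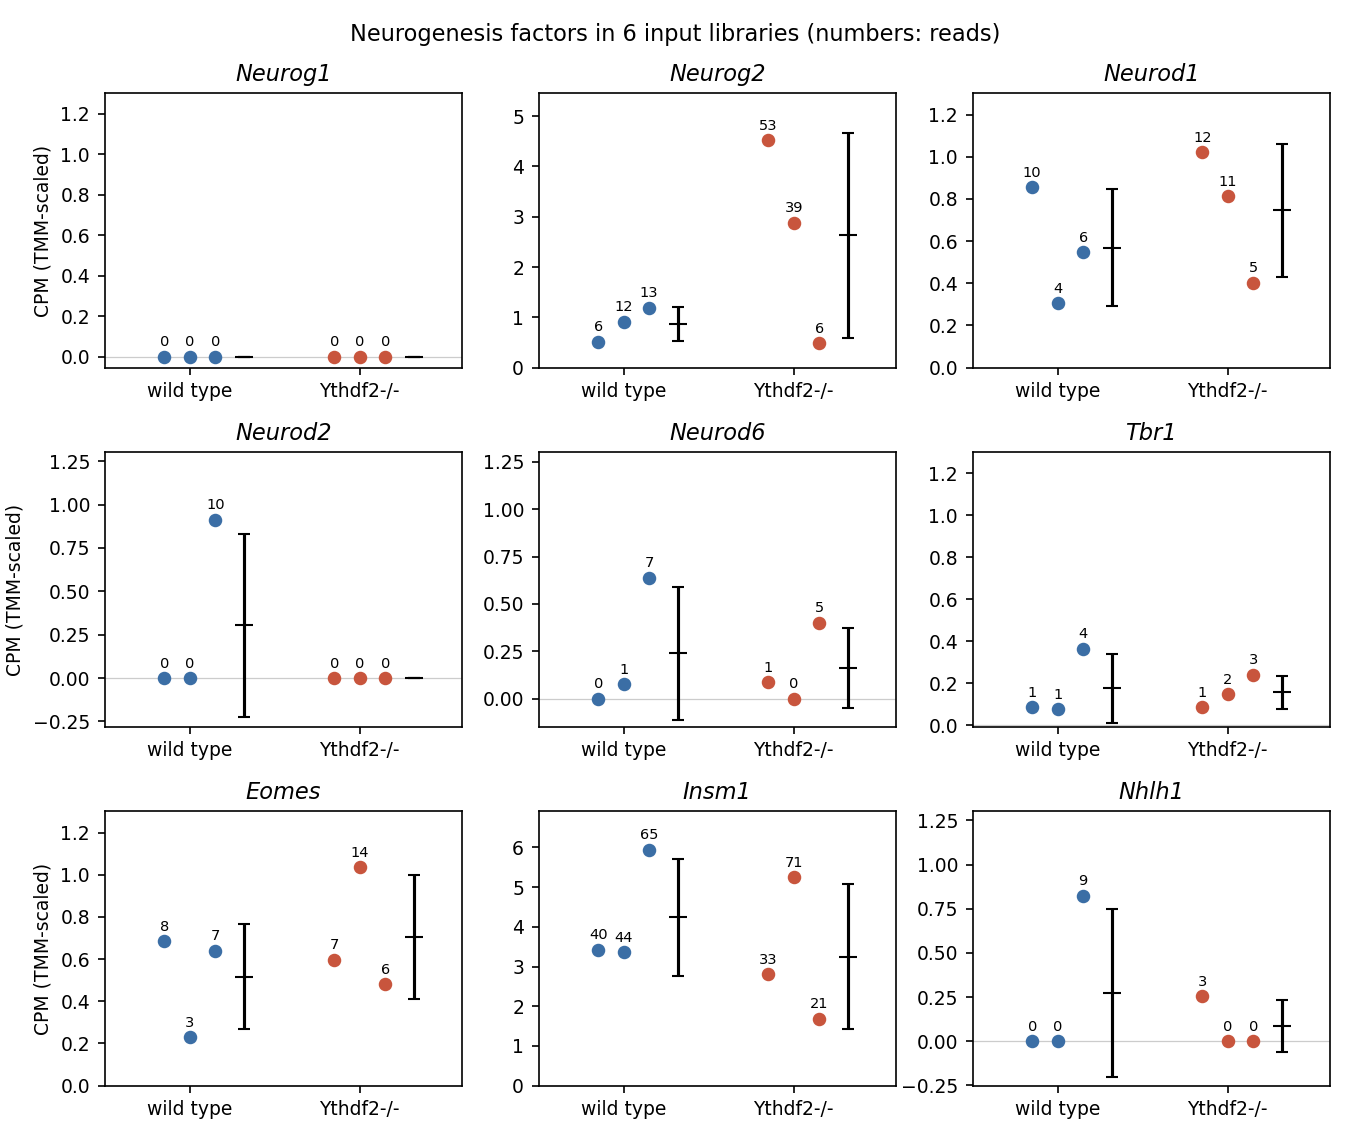
Level in CPM (y axis, scaled with TMM factors) of the 9 factors in the 3 wild-type (blue) and 3 *Ythdf2-/-* (red) libraries, replicates 1 to 3 from left to right within a genotype. The number at each point is its read count and the black bars are mean ± SD, which can reach below 0. *Neurog2* has 53 and 39 reads in 2 *Ythdf2-/-* libraries and 6 in the other, while *Neurod2* has reads only in wild-type replicate 3.

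The filter kept genes with about 10 reads at median depth (0.822 CPM before TMM scaling) in at least 3 libraries, which left 13112 genes. *Neurog2*, *Neurod1* and *Insm1* passed. *Neurog1*, *Neurod2*, *Neurod6*, *Tbr1*, *Eomes* and *Nhlh1* did not, and were too low to compare. With edgeR's quasi-likelihood test, 0 of the 3 tested factors had an adjusted p under 0.05, as did 0% of the 13112 genes, so the share tells nothing about the factors. At an unadjusted p under 0.05 there were 0 of 3, against 3.63% of all genes (1.81% higher and 1.82% lower in *Ythdf2-/-*). Without wild-type replicate 3, 0 of 3 passed the adjusted threshold and 0.0151% of all genes did. DESeq2 also called 0 of the 3 (31 of all genes). In 0 of the 3 tested factors did all 3 libraries of one genotype lie above all 3 of the other, against 10.2% of the genes tested (5.26% higher and 4.92% lower in *Ythdf2-/-*). These are bulk libraries, so fewer cells of a type and less RNA per cell cannot be told apart.

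*Neurog2*, the main proneural gene of dorsal forebrain progenitors, had the widest range of log2 CPM among the 3 tested factors, 2.86 against 1.72 for *Insm1* and 1.34 for *Neurod1*. Its wild-type counts were 6, 12 and 13 reads (0.513, 0.915 and 1.19 CPM), and its *Ythdf2-/-* counts were 53, 39 and 6 reads (4.52, 2.88 and 0.482 CPM). Thus *Ythdf2-/-* replicates 1 and 2 exceeded every wild-type library, and replicate 3 had as few reads as the lowest of them. The 95% exact binomial intervals of the *Ythdf2-/-* libraries were 3.38 to 5.91, 2.05 to 3.94 and 0.177 to 1.05 CPM, and the highest wild-type interval ended at 2.03 CPM. Such intervals cover counting error only. The means were 0.872 ± 0.339 CPM in wild type and 2.63 ± 2.03 CPM in *Ythdf2-/-* (SD, n = 3 each). The log2 fold change, *Ythdf2-/-* over wild type, was 1.58 (standard error 0.791, 95% interval -0.33 to 3.49, edgeR quasi-likelihood adjusted p = 0.999). An exact two-sided permutation test of its CPM gave p = 0.4, where 3 against 3 cannot go below 0.1. The interval includes 0 and also a rise of several fold.

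The *Neurog2* difference moved with 1 library and with the Y-linked reads. Without *Ythdf2-/-* replicate 3 the log2 fold change was 2.07 (unadjusted p = 0.00710, edgeR quasi-likelihood adjusted p = 0.9998), where 2.13% of genes had an unadjusted p under 0.05. Without *Ythdf2-/-* replicate 1 it was 0.96. Without wild-type replicate 3 it was 1.85 (unadjusted p = 0.0891, edgeR quasi-likelihood adjusted p = 0.361), where 16.6% of genes had an unadjusted p under 0.05. The 3 libraries with at most 1 Y-linked read (wild-type replicate 3 and *Ythdf2-/-* replicates 1 and 2) held the 3 highest *Neurog2* levels, a separation seen in 26.8% of the genes tested. Among them, wild type had 1.19 CPM and *Ythdf2-/-* had 4.52 and 2.88 CPM. Among the 3 libraries with Y-linked reads, wild type had 0.513 and 0.915 CPM and *Ythdf2-/-* had 0.482 CPM. With a term for Y-linked reads the genotype difference was 0.73 on the log2 scale (standard error 0.645, edgeR adjusted p = 0.689). The part of embryo sex in the result was not tested beyond these values.

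**Figure D2:**
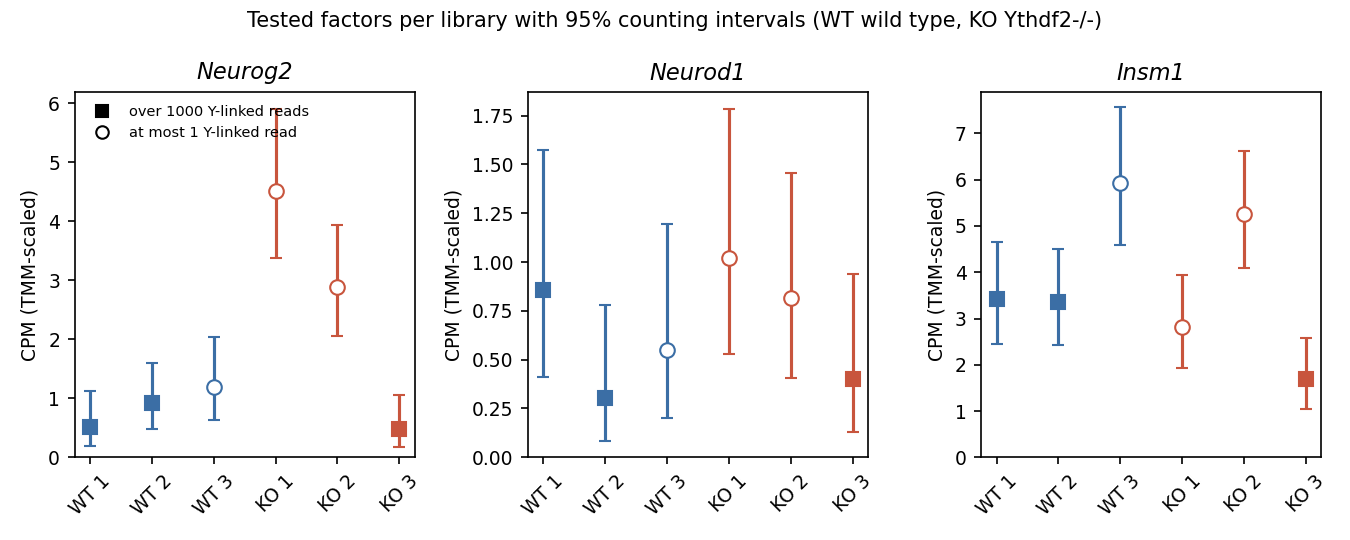
Level in CPM (y axis, scaled with TMM factors) of the 3 tested factors in each library, with 95% exact binomial intervals that cover counting error only. Filled squares are the libraries with 1111 to 2147 Y-linked reads and open circles those with 0 or 1, and *Neurog2* is highest in the open circles.

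*Insm1*, a zinc finger factor that promotes the formation of basal progenitors, was the best covered. Its wild-type counts were 40, 44 and 65 reads (3.42, 3.35 and 5.94 CPM), and its *Ythdf2-/-* counts were 33, 71 and 21 reads (2.81, 5.25 and 1.69 CPM). The genotypes overlapped, since *Ythdf2-/-* replicate 2 exceeded 2 wild-type libraries. The means were 4.24 ± 1.47 CPM in wild type and 3.25 ± 1.82 CPM in *Ythdf2-/-* (SD, n = 3 each). On the log2 scale the fold change was -0.38 (standard error 0.488, 95% interval -1.56 to 0.80, edgeR quasi-likelihood adjusted p = 0.999). It was -0.05 without wild-type replicate 3 and -0.90 without *Ythdf2-/-* replicate 2, where the 2 remaining *Ythdf2-/-* libraries lay below all wild-type libraries. The share of all genes separated in that smaller set was not computed. With the term for Y-linked reads it was -0.76 (edgeR adjusted p = 0.497). *Insm1* and *Neurog2* were thus not ordered alike across libraries, and *Ythdf2-/-* replicate 3 was lowest for both.

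*Neurod1*, which acts downstream of neurogenins in neuronal differentiation, had 10, 4 and 6 wild-type reads and 12, 11 and 5 *Ythdf2-/-* reads. The corresponding levels were 0.855, 0.305 and 0.548 CPM and 1.02, 0.814 and 0.402 CPM, and the genotypes overlapped. The means were 0.569 ± 0.276 CPM and 0.746 ± 0.316 CPM (SD, n = 3 each), a difference smaller than either SD. On the log2 scale the fold change was 0.39 (standard error 0.557, 95% interval -0.95 to 1.74, edgeR quasi-likelihood adjusted p = 0.999), and leaving out 1 library at a time gave 0.08 to 0.81. This gene only just passed the filter.

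**Figure D3:**
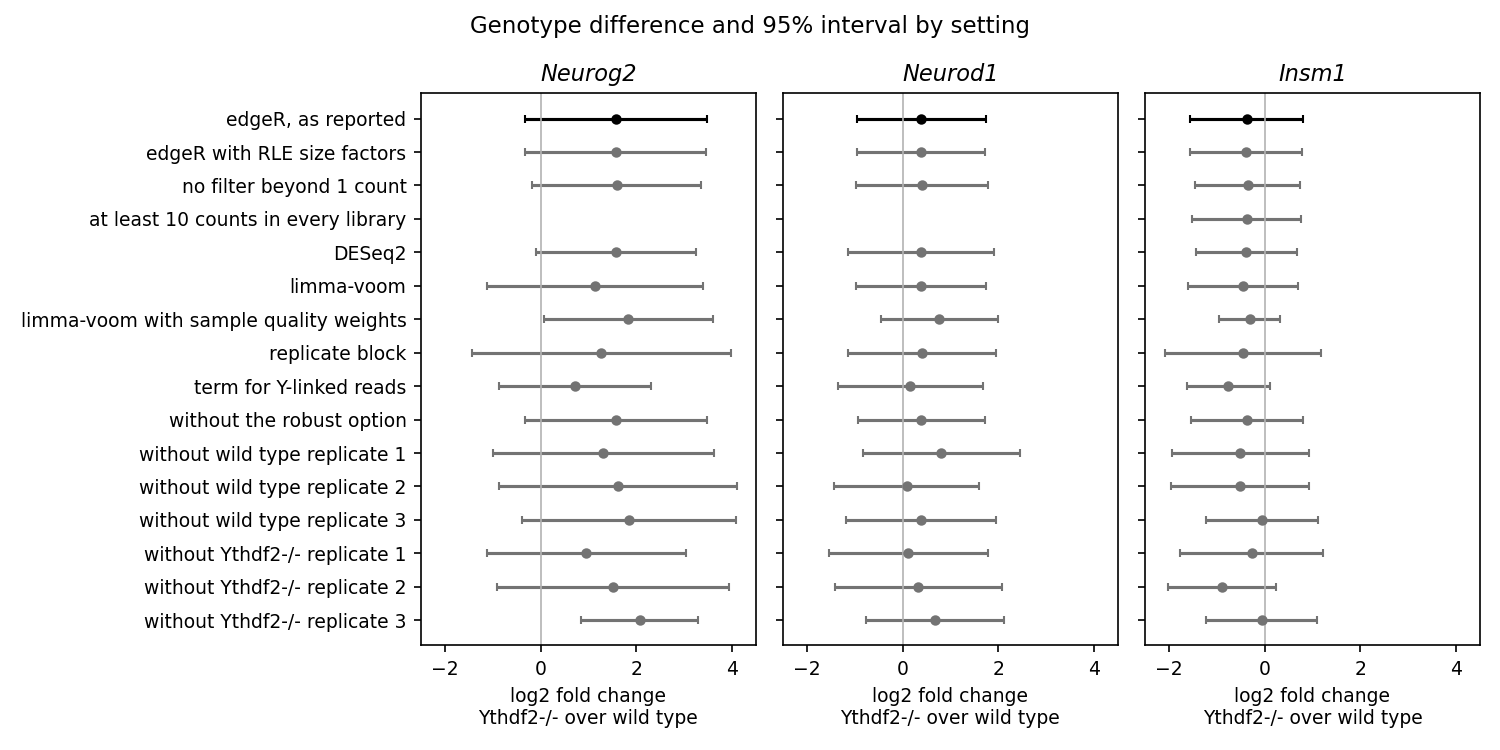
Log2 fold change of *Ythdf2-/-* over wild type (x axis) with its 95% interval for the 3 tested factors under edgeR as reported (black) and 15 other settings (grey, y axis), where *Neurog2* and *Neurod1* could not be fitted with at least 10 counts in every library. The interval of *Neurog2* lies above 0 only with sample quality weights and without *Ythdf2-/-* replicate 3, and those of *Neurod1* and *Insm1* include 0 in every setting shown. With sample quality weights, 3921 of all 13112 genes had an unadjusted limma-voom p under 0.05.

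*Eomes*, which encodes Tbr2 and marks basal progenitors, came closest to the filter among the factors left out. Wild type had 8, 3 and 7 reads (0.684, 0.229 and 0.640 CPM) and *Ythdf2-/-* had 7, 14 and 6 reads (0.596, 1.04 and 0.482 CPM). The highest library was *Ythdf2-/-* replicate 2, and the genotypes overlapped. Summed over libraries, the ratio of *Ythdf2-/-* to wild type was 1.42, with a 95% interval of 0.755 to 2.74 from counting error alone. The interval includes 1 as well as a 2-fold higher level.

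*Tbr1*, the T-box factor of early-born deep-layer neurons, had 1, 1 and 4 reads in wild type and 1, 2 and 3 in *Ythdf2-/-*, in replicate order. No library exceeded 0.365 CPM. The ratio over the summed reads was 0.948, with a counting interval of 0.254 to 3.55, so a difference of several fold was not detectable at this depth.

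*Neurod2* and *Neurod6*, NeuroD factors of maturing cortical projection neurons, and *Nhlh1*, a bHLH factor of newly born neurons, had their highest value in wild-type replicate 3. *Neurod2* had 0, 0 and 10 wild-type reads and 0 in each *Ythdf2-/-* library. The 10 reads correspond to 0.914 CPM (95% exact binomial interval 0.438 to 1.68), and a count of 0, taken as a limit of 3 reads rather than as an interval, allows up to 0.222 to 0.257 CPM in the other 5 libraries. *Nhlh1* had 0, 0 and 9 reads in wild type and 3, 0 and 0 in *Ythdf2-/-*, so 9 of its 12 reads came from that library. *Neurod6* had 0, 1 and 7 reads in wild type and 1, 0 and 5 in *Ythdf2-/-*, so *Ythdf2-/-* replicate 3 was nearly as high. Apart from wild-type replicate 3, these 3 genes had 0 or 1 read per library, with the exceptions of 5 for *Neurod6* and 3 for *Nhlh1*. A genotype difference in them would rest on 1 library.

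Many markers of differentiated cells were also highest in that library: 8 of the 11 neuron markers, 4 of the 7 astrocyte markers and 5 of the 9 oligodendrocyte lineage markers. Of all 13112 genes tested, 33.8% were highest there, as were 5 of the 9 factors themselves. The exceptions included *Snap25* and *Stmn2* among the neuron markers, *S100b*, *Slc1a2* and *Aldh1l1* among the astrocyte markers, and *Cspg4*, which was lowest there. These were named after their values were seen. *Stmn2*, a gene of growing axons, had 18, 19 and 16 wild-type reads and 1, 8 and 2 *Ythdf2-/-* reads, with a log2 fold change of -2.33 with and without wild-type replicate 3 (unadjusted p = 0.00914, edgeR quasi-likelihood adjusted p = 0.999 with all libraries). *Dcx*, a microtubule protein of immature neurons, had 117, 172 and 3441 wild-type reads and 98, 153 and 123 *Ythdf2-/-* reads. *Gfap*, the intermediate filament gene of astrocytes, had 5103, 8190 and 33286 wild-type reads and 1494, 1185 and 69 *Ythdf2-/-* reads. *Tubb3*, the neuronal tubulin Tuj1, had 155, 190 and 840 reads in wild type and 314, 572 and 89 in *Ythdf2-/-*. The 11 neuron markers, led by *Map2*, summed to 2142 CPM in wild-type replicate 3 and to 1126 to 1362 CPM in the other 5 libraries, although *Slc17a7*, the vesicular glutamate transporter of projection neurons, had at most 2 reads in any of them. The 7 astrocyte markers, among them *Gja1* and *Gfap*, summed to 7745 CPM there against 1473 to 3560 CPM elsewhere. The 9 oligodendrocyte lineage markers, summed to 3592 CPM against 1580 to 1904 CPM, although *Olig1* (546 CPM) and *Olig2* (323 CPM), the most abundant of the list, were lowest there. The mesenchymal list summed to 32.3 CPM against 0.888 to 4.34 CPM, mostly *Pdgfrb* with 347 reads, while *Col1a1* had 0. The 5 endothelial markers, led by *Kdr* and *Tek*, and the microglial list, led by *Cx3cr1* and *Csf1r*, each summed to at most 2.21 CPM in every library. The part of these cell types in the neurogenic factors was not tested.

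*Neurog1*, the paralogue of *Neurog2* that is active in the early dorsal forebrain, had 0 reads in all 6 libraries. At 3 reads per library, the limit used here for a count of 0, this allows a level of up to 0.222 to 0.274 CPM, and it does not show that the gene was silent. *Neurog3* and *Atoh1*, proneural genes of other tissues and of hindbrain, also had 0 reads, and *Emx1*, a dorsal cortical factor, had 1 read in all.

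The deposited FPKM tables gave another picture of the lowest genes. Their expected counts summed to 1.97% to 2.40% of the raw counts per library, and they listed *Neurog1*, *Tbr1* and *Nhlh1* at 0 in all 6 libraries. The ratio to raw reads was higher for *Eomes*, with 24.9 expected counts in all against 45 raw reads, or 55.3%, for *Neurod6* (26.5%) and for *Neurod2* (9.0%). It is not a share of the same reads, since *Eomes* had 10.9 expected counts in wild-type replicate 3 against 7 raw reads. For *Neurod6* and *Neurod2*, some expected counts fell in libraries with 0 raw reads, 1.98 for *Neurod6* in wild-type replicate 1 and 0.9 for *Neurod2* in wild-type replicate 2. The FPKM of *Eomes* was 0.27, 2.39 and 11.25 in wild type, and 4.20, 7.83 and 0 in *Ythdf2-/-*. This order differs from that of the raw reads, and the cause was not tested. *Insm1* and *Neurog2* were listed at 0 in 4 and 5 of the 6 libraries.

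Among the other neuronal bHLH factors, *Hes6* could be tested. Its log2 fold change was 0.21 (standard error 0.188), and without wild-type replicate 3 it was 0.04. *Neurod4*, a NeuroD-related factor named after its values were seen, had 8, 7 and 4 reads in wild type and 2, 30 and 8 in *Ythdf2-/-*. Its 30 reads came from *Ythdf2-/-* replicate 2, the library where *Insm1* and *Eomes* were also highest among the *Ythdf2-/-* libraries. The 3 E proteins, with which proneural factors pair, were abundant, with *Tcf12* at 402 to 746 CPM and *Tcf4* at 396 to 772 CPM. Their median log2 fold change was -0.16, with 1 higher and 2 lower.

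The 7 Id, Hes and Hey inhibitors had a median log2 fold change of -0.37, against -0.01 over all genes tested, with 2 higher and 5 lower and 0 at an unadjusted p under 0.05. Without wild-type replicate 3 the median was 0.08. *Hes5*, a Notch effector that maintains progenitors, had 31.0, 27.9 and 218 CPM in wild type and 68.7, 114 and 18.2 CPM in *Ythdf2-/-*. Its log2 fold change of -0.47 (standard error 0.984) turned to 1.18 without wild-type replicate 3. *Id2* followed the same library, at 216 CPM in wild-type replicate 3 and 80.2 to 107 CPM elsewhere. *Hes1* had the largest difference of the list, with a log2 fold change of -0.66 (standard error 0.476) that was -0.02 without that library.

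Of 13 genes known as targets of neurogenin and NeuroD proteins, 12 were tested. Their median log2 fold change was -0.04, with 6 higher and 6 lower, and 0 had an unadjusted p under 0.05. Leaving out wild-type replicate 3 gave a median of 0.27 and 1 such gene of the 12, where 16.6% of all genes were under that threshold. *Sox4*, a transcription factor of committed neuronal precursors, was the most abundant, at 165, 162 and 508 CPM in wild type and 254, 423 and 169 CPM in *Ythdf2-/-*. On the log2 scale *Sox4* differed by 0.02 (standard error 0.556) with all libraries and by 0.78 without wild-type replicate 3. *Btg2*, an antiproliferative gene of neurogenic progenitors, had 127, 121 and 311 CPM in wild type and 106, 330 and 66.8 CPM in *Ythdf2-/-*, so it was highest in *Ythdf2-/-* replicate 2 and lowest in replicate 3, like *Insm1* within that genotype, and its log2 fold change of -0.15 (standard error 0.673) turned to 0.44 without wild-type replicate 3. *Gadd45g*, a stress sensor gene switched on by proneural factors, had the largest difference, with a log2 fold change of -1.27 (standard error 0.610) that was -0.56 without wild-type replicate 3.

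Of 13 transcription factors of cortical projection neurons, 12 were tested, with 9 higher and 3 lower and a median log2 fold change of 0.18. Leaving out wild-type replicate 3 gave a median of 0.53, and 5 of the 12, *Sox5* and *Cux1* among them, had an unadjusted p under 0.05, where 16.6% of all genes did, and 0 passed the adjusted threshold. With all 6 libraries only *Sox5*, which shapes deep-layer neurons and is also expressed in glial precursors, had an unadjusted p under 0.05 (0.00316, edgeR quasi-likelihood adjusted p = 0.999). It had 62.9, 62.1 and 55.5 CPM in wild type and 81.7, 91.4 and 93.4 CPM in *Ythdf2-/-*, a log2 fold change of 0.56 that was 0.51 without wild-type replicate 3. *Cux1* and *Pou3f3*, the most abundant of the list, had log2 fold changes of 0.14 (standard error 0.157) and 0.03 (standard error 0.113). *Pax6*, a dorsal progenitor factor and activator of *Neurog2*, stood at -0.17 on the log2 fold scale (standard error 0.308), and at 0.23 without wild-type replicate 3. *Pax6* had 44.5 to 92.5 CPM, well covered where *Neurog2* was not.

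Of the 8 ventral forebrain factors, 4 were tested, with 1 higher and 3 lower. *Dlx2* and *Gsx2*, factors of ganglionic eminence progenitors, had log2 fold changes of -1.27 (standard error 0.559) and -1.20 (standard error 0.666), with at most 3.75 CPM in any library. *Gsx1*, the related factor that was higher, stood at 0.51 (standard error 0.484), and at 0.61 without wild-type replicate 3. *Dlx1*, like *Gsx1* named after its values were seen, was the 1 gene of the list with an unadjusted p under 0.05 (0.0319, edgeR quasi-likelihood adjusted p = 0.999). The list median was -1.20, and -0.79 without wild-type replicate 3, where *Dlx1* had an unadjusted p of 0.0916 and 0 genes of the list were under 0.05. Across all these lists 0 genes had an adjusted p under 0.05, by edgeR or by DESeq2.

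**Figure D4:**
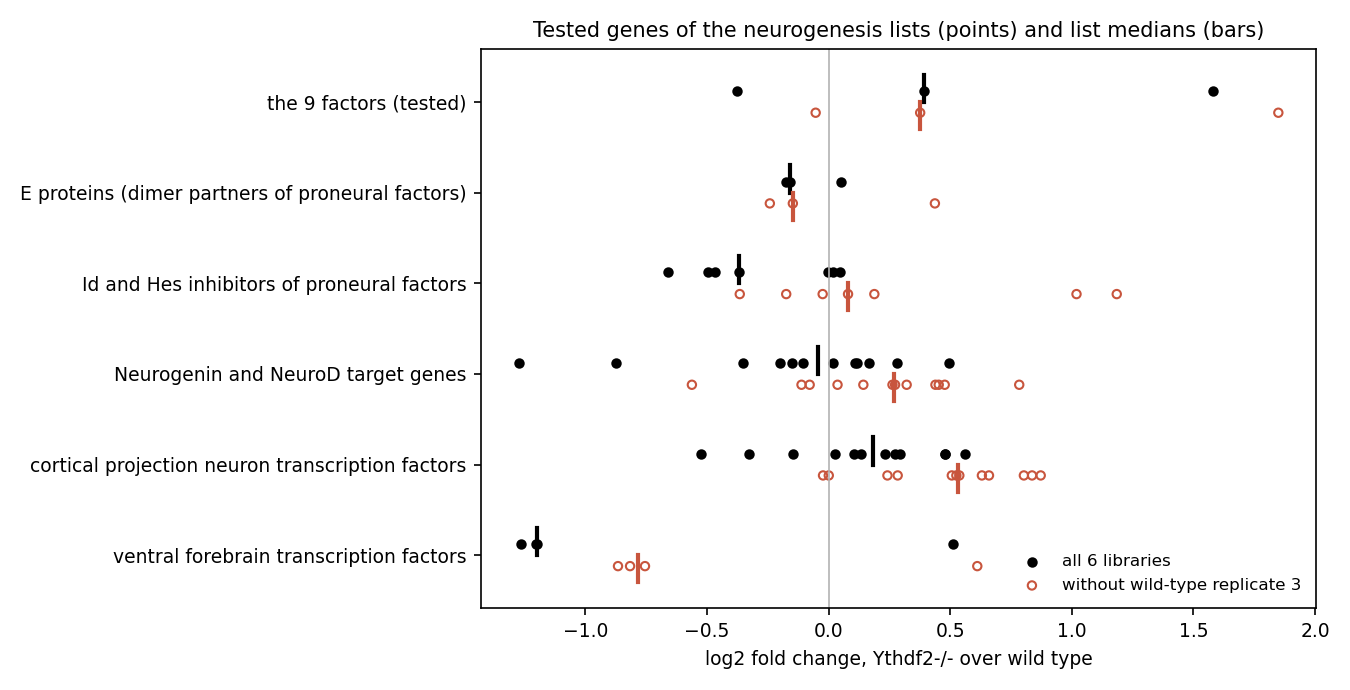
Log2 fold change of *Ythdf2-/-* over wild type (x axis) for the 3 tested factors and each tested gene of 5 neurogenesis lists (y axis), with all 6 libraries (black points) and without wild-type replicate 3 (open red points), and bars at the medians. The inhibitor list moves from a median of -0.37 to 0.08 and the ventral median from -1.20 to -0.79.

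For each tested factor, the genes with the most similar pattern were found by the root mean square difference of centred log2 CPM over the 6 libraries, as a description. *Grm4*, *5430431A17Rik* and *Lypd1* were nearest to *Neurog2*, at 0.480 to 0.509 log2 units. *Grm4*, a metabotropic glutamate receptor gene, had 21, 27 and 25 reads in wild type and 60, 68 and 22 in *Ythdf2-/-*, and *Lypd1* had 77, 90 and 115 reads in wild type and 223, 204 and 86 in *Ythdf2-/-*. Both showed the *Neurog2* pattern of 2 high *Ythdf2-/-* libraries and replicate 3 near wild type. *Ptp4a3*, a phosphatase gene, followed *Insm1* closely (0.129 log2 units) with far more reads, 691, 808 and 1077 in wild type and 495, 1115 and 309 in *Ythdf2-/-*. *Drc1* and *C430049B03Rik* were the other two, at 0.128 and 0.132. *Naaladl2*, *Zfp389* and *B4galnt2* were nearest to *Neurod1*, at 0.201 to 0.235.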

How the data were processed

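RNA-seq input libraries were analysed, grouped by the genotype and replicate number in the sample titles. The authors used TopHat for alignment (mm10), and raw counts per gene were deposited. The submitters' processing notes name featureCounts, RSEM 1.2.15 and Bowtie2 2.2.9. Strand and multi-mapping settings are not given in the sources used here, so reads shared with unannotated or antisense transcripts cannot be told apart. The deposited expected counts and FPKM, in a table with RSEM columns, served as an alternative level, and its gene lengths as RPKM lengths.

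In R 4.3.3, edgeR 4.0.16 scaled libraries by TMM, and its robust quasi-likelihood test (glmQLFit, glmQLFTest) compared genotypes in genes kept by filterByExpr. No other term entered, and p-values were adjusted by Benjamini-Hochberg over all genes tested. Alternatives included limma-voom 3.58.1 and DESeq2 1.42.0. The script was tested on simulated data. Log2 CPM used a prior count of 2, and principal components used the 2000 most variable genes. Sequences came from RefSeq GRCm38.p6, read with pysam 0.24.0. An *Insm1* promoter was not analysed here. Labels do not say whether cultures came from separate embryos, so p-values measure the spread between these libraries.

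The factors and lists were chosen with earlier results of these data known. Named genes were all 9 factors, *Ythdf2*, the 2 most abundant genes and the largest difference of each list, the 2 most abundant of each marker list with *Dcx*, *Tubb3* and *Gfap*, the 3 nearest patterns, and any gene past an adjusted p of 0.05. *Neurod4*, *Dlx1*, *Gsx1*, some markers and genes named for having 0 to 2 reads were added after their values were seen. Some genes of the lists are not reported here.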

Additional observations from a re-analysis of the deposited data

How the results depend on the processing

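The direction of the log2 fold changes of *Neurog2*, *Neurod1* and *Insm1* held in all 43 refits that could be made, from 0.73 to 2.07 for *Neurog2*, from 0.08 to 0.81 for *Neurod1* and from -0.90 to -0.05 for *Insm1*, and 0 of these factors passed an adjusted p of 0.05 in any of them. The number at an unadjusted p under 0.05 was 1 with sample quality weights in limma-voom (*Neurog2*, adjusted p = 0.154). In that setting 3921 of all 13112 genes were under the same threshold, so the count tells nothing about *Neurog2*. When a library was left out the number was 0 to 1. The 1 was *Neurog2* without *Ythdf2-/-* replicate 3, where 2.13% of genes were under the threshold. The number whose genotypes did not overlap was also 0 to 1 when a library was left out: *Neurog2* without *Ythdf2-/-* replicate 3 and *Insm1* without *Ythdf2-/-* replicate 2. The share of all genes was not computed for these smaller sets, where fewer libraries separate more easily. No result about the factors is read from these counts. With at least 10 counts in every library, 1 factor could be tested, *Insm1*. With no filter 8 could be tested, and 0 had an unadjusted p under 0.05.

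Libraries with the same replicate number were not more alike: deviations from the genotype means correlated at -0.394 to -0.244 between them. These values rest on 3 pairs and do not show whether such libraries shared a preparation. With the replicate number as a block, *Neurog2* had a log2 fold change of 1.27, *Neurod1* 0.40 and *Insm1* -0.46, with 0 factors past an adjusted and 0 past an unadjusted p of 0.05, and 183 of all genes were under the latter against 476 without the block. Counts of genes past an adjusted p of 0.05 ran from 0 to 632 of all genes, the highest with sample quality weights, which gave wild-type replicate 3 a weight of 0.0901, and 31 with DESeq2, 13 with the term for Y-linked reads. In place of RPKM, the deposited FPKM gave mean levels of 4.32 for *Eomes*, 1.14 for *Neurod6*, 0.183 for *Neurod2* and 0 for *Tbr1*. Depth limits 6 of the 9 factors, which had 0 to 45 reads over all libraries.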
